A study of Mus musculus with 9 samples.

Results

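The genes described here make fatty acids and build them into triglyceride. They were 32 named genes of the 54532 in the count table, taken by gene symbol with no use of measured values, and all 32 symbols were found. By role, 7 encode enzymes and carriers of fatty acid synthesis, 4 encode regulators, 9 encode desaturases and elongases, and 12 act in fatty acid activation and triglyceride assembly. RNA was sequenced in 9 liver libraries from male wild-type C57BL/6 mice, 3 in each of 3 groups, each library taken here as 1 animal. The young mice were 8 weeks old, and the labels describe no injection for them. Mice of the 2 old groups were 20 months of age; at 14 months they had received an adeno-associated virus (AAV9), through the tail vein and by injection into sWAT, the usual short form for subcutaneous white fat. The virus of the old control group was AAV9-shRNA-Neg, a negative control hairpin, and that of the other old group was AAV9-shRNA-Fabp4, a hairpin against Fabp4, which encodes a fatty acid carrier of fat cells and macrophages. Age and virus therefore go together in every comparison with young liver and cannot be told apart there.

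Hepatocytes make fatty acids from citrate that leaves the mitochondrion. ATP citrate lyase turns it into acetyl-CoA, acetyl-CoA carboxylase makes malonyl-CoA, and fatty acid synthase joins these units into palmitate. Elongases and desaturases lengthen the chain and add double bonds, and a series of acyltransferases and a phosphatase then load acyl chains onto glycerol. Transcription of many of these genes in liver is driven by insulin through SREBP-1c and by glucose through ChREBP, the products of Srebf1 and Mlxipl, so that their RNA follows feeding and the time of day.

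Several facts of the libraries bear on what follows. Total counts per library ran from 14243344 to 17125440, and albumin (Alb), the defining hepatocyte product, took 5.34% to 10.4% of each library. The targeted gene Fabp4 stood at 7.21, 13.6 and 10.9 CPM (counts scaled to library size, with edgeR's TMM factors) in the old control livers. It stood at 11.2, 3.81 and 7.58 CPM in the livers labelled old Fabp4 shRNA, and the groups overlapped (log2 fold change -0.49 ± 1.16 SE, edgeR adjusted p = 0.96). Its young values were 3.40 and 2.67 CPM in the 2 numbered livers and 64.8 CPM in a young library whose column name matches no numbered young animal, called the unnumbered library here. It also held 3737 CPM of 10 skeletal muscle genes, against 81.7 CPM in old Fabp4 shRNA replicate 3 and at most 2.88 CPM in each of the other 7 libraries. The count and normalized columns of that name hold different values: for 10483 genes, FPKM (reads scaled to gene length and library size) was a fixed multiple of the count for 0.229% of them there and for 100% in each of the other 8 columns. Reads recovered from its FPKM column held 8.45 CPM of the muscle genes. The count column totalled 16187004 and the recovered reads 11805823. The 2 columns may thus hold different libraries, and which of them is the labelled young sample is not known. Fold changes against young are therefore also given from the recovered reads or without the unnumbered library. The extraction text of the labels names NRVMs, which is not liver, while tissue and markers are those of liver. Of 10 adipocyte genes, 6 stayed under 2 CPM in every library, among them Adipoq, Lep and Plin1. The rest reached 2 CPM or more in some library, with a highest value of 20.8 CPM. Summed, the 10 genes stood at 16.4 to 42.3 CPM per library. In whole tissue, fewer cells of a type and less RNA per cell cannot be told apart.

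Promoters are shown for 3 members on which the results turn: Fasn, the synthase itself, Srebf1, its regulator, and Lpin2. The Lpin2 call turned on whether the count or the FPKM column of the unnumbered library was used. RefSeq start sites (GRCm38.p6) were at hand for 26 of the 32 members, in 36 windows of the 250 bases before the start. The windows were searched on both strands for CACGTG (E-box, bound by carbohydrate response and clock factors among others), CCAAT (bound by NF-Y) and TCACNCCAC (a sterol regulatory element). The Fasn window is chr11:120824548-120824797, minus strand, just upstream of the gene. The Srebf1 window is chr11:60210472-60210721, minus strand, and lies before a start site within the gene's span. The Lpin2 window is chr17:71183282-71183531, plus strand, also before a start site within the span of its gene. None of the 3 windows overlaps a GENCODE exon. Capitals mark the motifs, which read ATTGG where CCAAT lies on the other strand, and the sequences run 5′ to 3′ on the gene's strand.
Fasn: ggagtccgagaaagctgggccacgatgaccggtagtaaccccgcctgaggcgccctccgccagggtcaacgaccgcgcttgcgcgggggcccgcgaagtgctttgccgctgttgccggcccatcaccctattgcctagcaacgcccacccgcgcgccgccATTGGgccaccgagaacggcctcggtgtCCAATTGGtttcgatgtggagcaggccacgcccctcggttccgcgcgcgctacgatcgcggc
Srebf1: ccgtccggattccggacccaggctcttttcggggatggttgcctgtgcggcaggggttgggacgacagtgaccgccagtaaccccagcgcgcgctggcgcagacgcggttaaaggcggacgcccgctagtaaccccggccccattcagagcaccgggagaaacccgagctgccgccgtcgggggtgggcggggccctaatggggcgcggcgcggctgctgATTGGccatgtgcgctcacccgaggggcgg
Lpin2: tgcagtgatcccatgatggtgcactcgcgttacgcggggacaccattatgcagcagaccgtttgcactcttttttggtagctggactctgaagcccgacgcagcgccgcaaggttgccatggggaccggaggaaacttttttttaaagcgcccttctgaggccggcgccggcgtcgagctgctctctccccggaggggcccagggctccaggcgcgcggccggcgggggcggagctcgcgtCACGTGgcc
Counted from the first printed base of each motif to the start site, the Fasn window holds CCAAT at 90, 62 and 59 bases, the last 2 sharing a pair of letters. The printed Srebf1 window holds 1 at 30 bases, and the printed Lpin2 window holds CACGTG at 9 bases. The printed Srebf1 and Lpin2 windows are each 1 of 3 windows of their gene, chosen after the matches were seen. Fasn had no other window. Of the other Srebf1 windows, 1 holds CCAAT at 166 bases and 1 holds none of the 3 motifs. Of the other Lpin2 windows, 1 holds CCAAT at 233, 165 and 57 bases and 1 holds none. CCAAT was found in at least 1 window of 15 of the 26 matched members, against 37.5% of all 27025 genes. By window it was found in 16 of 36, against 33.8% of all 32851 windows. CACGTG was found for 4 members (Elovl5, Lpin2, Mlxipl and Slc25a1), against 6.86% of genes, and in 4 of 36 windows, against 6.02%. TCACNCCAC was found for 1 member, Mlxipl, against 1.22% of genes, and in 1 of 36 windows, against 1.05%. A gene with more windows has more places to match. These are matches of letters and no measure of binding.

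Per gene length, the members spanned a wide range of abundance in the 8 libraries whose count and FPKM columns match. Scd1, the main hepatic stearoyl-CoA desaturase, led with a median of 494 FPKM (237 to 894). The elongases Elovl5, Elovl2 and Elovl3 followed at medians of 153, 141 and 125 FPKM, and their ranges overlapped widely, from 96.1 to 352, from 78.4 to 206 and from 34.4 to 227 FPKM. Dgat2, which makes triglyceride from diacylglycerol, came next at 96.5 FPKM, and its range of 57.0 to 137 FPKM overlapped those of all 3 elongases. Fasn, at 5.66 FPKM (3.80 to 11.6), ranked 20th. Lpin3, Mogat1 and Scd2 had medians of 1.03, 0.637 and 0.371 FPKM. Pnpla3, which encodes adiponutrin, a lipase of lipid droplets, stood last at 0.0344 FPKM. It had 0, 2 and 0 counts in the young libraries (the second value from the unnumbered one), 6, 0 and 7 in old control and 0, 2 and 4 in old Fabp4 shRNA. A count of 0 allows up to 3 counts, or 0.175 to 0.211 CPM before TMM scaling, and Pnpla3 was the only member left out of the tests by the filter on low counts. The lowest-ranked members are thus read at few counts, and neighbours in the order mostly overlapped.

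**Figure D1:**
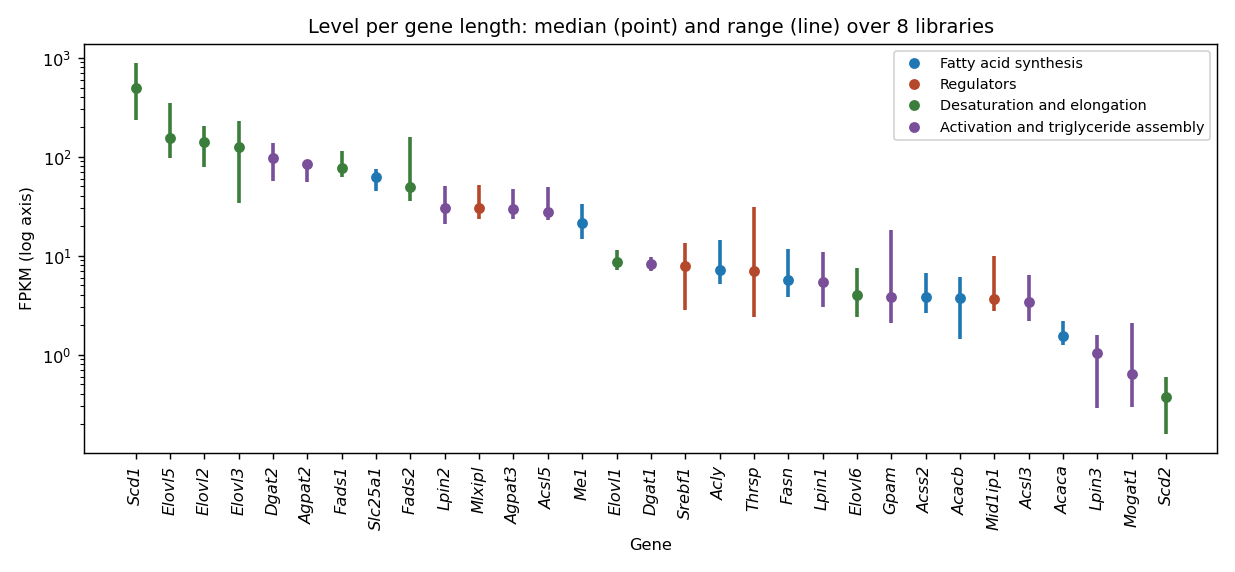
Level of 31 members per gene length, as FPKM on a log axis. Points are medians and lines run from the lowest to the highest of 8 libraries (the unnumbered young library and Pnpla3, listed at 0 in some libraries, are not drawn); Scd1 has a median of 494 FPKM and Scd2 one of 0.371 FPKM.

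No member passed a Benjamini-Hochberg adjusted p under 0.05 in any of the 3 comparisons, among the 31 of 32 that could be tested. This held in edgeR's quasi-likelihood test, in DESeq2 and in limma-voom. Few genes of any kind did so in edgeR: 0.0357% of the 14025 tested genes (5 genes) for old control against young, 0% for old Fabp4 shRNA against old control, and 0.057% (8 genes) for old Fabp4 shRNA against young. DESeq2 called 1.2%, 0.0499% and 0.884% of the same genes, and limma-voom 0.0214%, 0% and 0%. With the unnumbered library replaced by its recovered reads, edgeR called 0.0718%, 0% and 0.445% of 13922 genes, and 1 member, Lpin2, was among them in the last comparison.

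At an unadjusted p under 0.05, which is given as a description, 7 members stood out in old control against young, 3 higher and 4 lower. Over all genes tested the shares were 6.42% higher and 4.07% lower. In old Fabp4 shRNA against old control there were 2 members, 1 in each direction, against 3.27% and 3.48% of genes. In old Fabp4 shRNA against young there were 6, 2 higher and 4 lower, against 4.43% and 4.5% of genes. With recovered reads the counts were 9 (3 higher, 6 lower), 6 (4 higher, 2 lower) and 11 (5 higher, 6 lower). The shares over all genes then were 7.88% higher and 5.98% lower, 4.93% and 3.69%, and 9.75% and 7.43%. These counts also moved with single libraries. In old control against young, 7 became 1 without young replicate 1 and 4 without old control replicate 5. The 7 became 3 without young replicate 5 or old control replicate 1 or 2. Over all genes, 901 higher and 571 lower became 664 and 513 without young replicate 1. They became 1049 and 419 without old control replicate 2. Between the old groups, 2 became 4 without the unnumbered library and 5 without old Fabp4 shRNA replicate 1. The 2 became 1 without young replicate 5 or old control replicate 1 or 5. Over all genes, 458 higher and 488 lower became 613 and 482 without the unnumbered library. They became 735 and 817 without old Fabp4 shRNA replicate 1, and 230 and 401 without old control replicate 5. For old Fabp4 shRNA against young, 6 became 0 without young replicate 1 and 11 without the unnumbered library. The 6 became 10 without old Fabp4 shRNA replicate 1, and 1 without young replicate 5 or old Fabp4 shRNA replicate 3 or 6. Over all genes, 622 higher and 631 lower became 372 and 383 without young replicate 1. They became 1096 and 1083 without old Fabp4 shRNA replicate 1, and 1001 and 804 without the unnumbered library. The median log2 fold change of the 31 members was -0.13, 0.098 and -0.089 in the 3 comparisons, beside 0.012, -0.013 and 0.023 over all tested genes. Recovered reads gave member medians of -0.041, 0.12 and -0.053. Each pair of comparisons shares 3 libraries, so they are not independent.

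**Figure D2:**
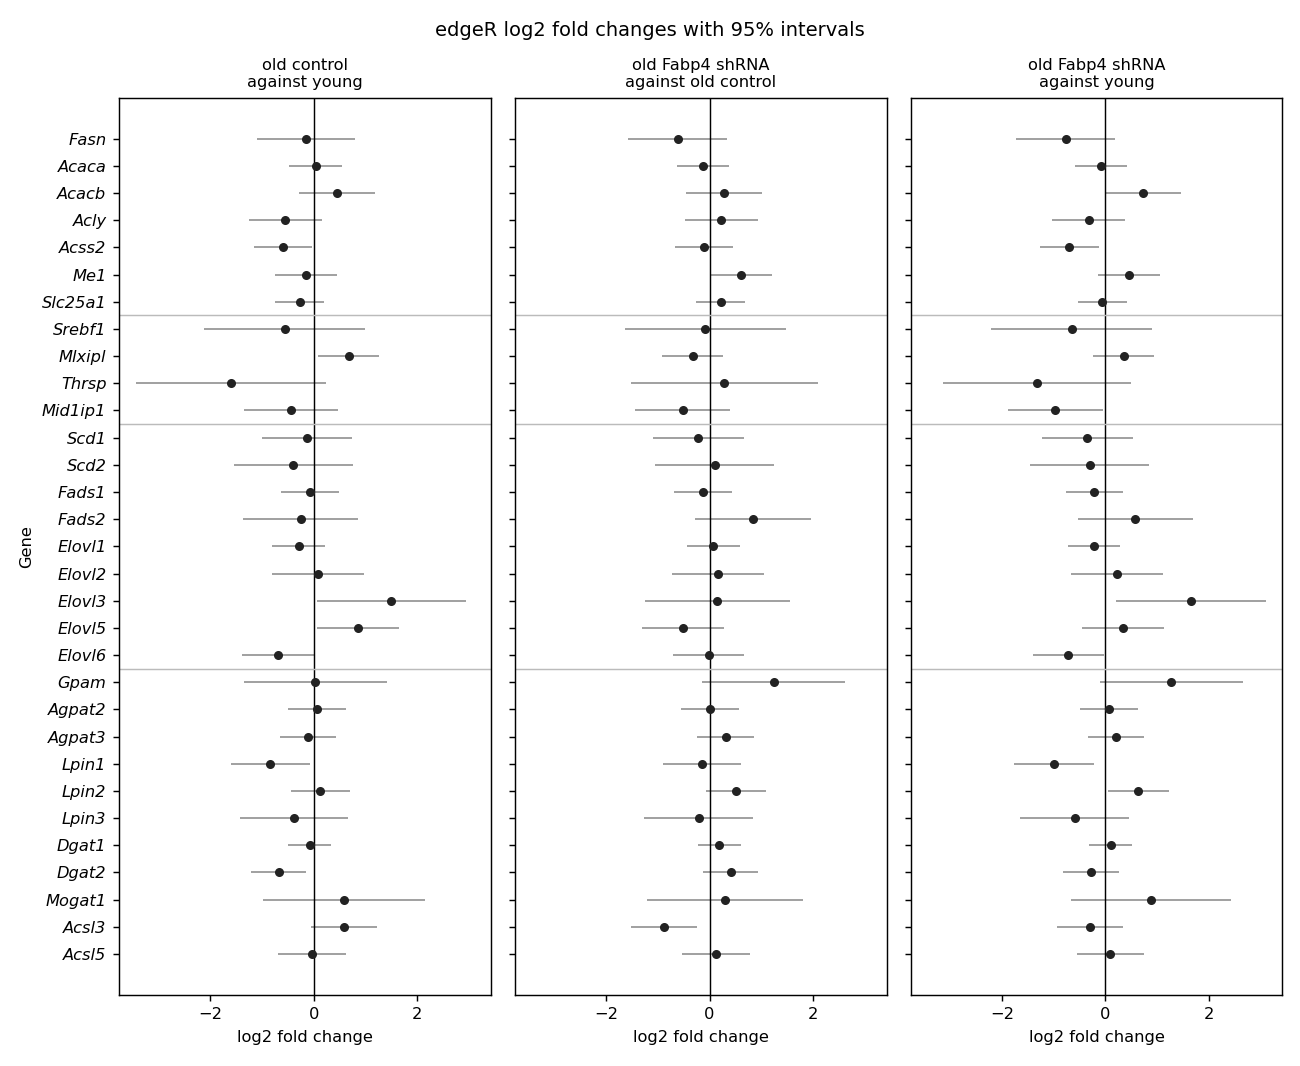
edgeR log2 fold changes of the 31 tested members (points) with 95% intervals (lines), for the 3 comparisons. No member passed the adjusted threshold; Thrsp has the widest interval in old control against young, from -3.44 to 0.23, and Dgat1 one of the narrowest, from -0.50 to 0.34.

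Several members varied widely among libraries of 1 group. The spread within groups (pooled SD of log2(CPM + 1), with the unnumbered library as counted) was 1.07 for Thrsp, 0.98 for Elovl3, 0.95 for Srebf1 and 0.83 for Gpam. These values were above those of 99.0%, 98.6%, 98.4% and 97.4% of tested genes with a mean of at least 10 CPM. At the other end Dgat1, the other enzyme that completes triglyceride, had a spread of 0.15, above 7.82% of such genes, and its highest library was 1.42 times its lowest. The highest library was 13.1 times the lowest for Thrsp and 8.82 times for Gpam. Old Fabp4 shRNA replicate 3 held the highest value of 7 members, young replicate 1 that of 6, and old control replicate 5 that of 0 members while holding the lowest value of 6.

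**Figure D3:**
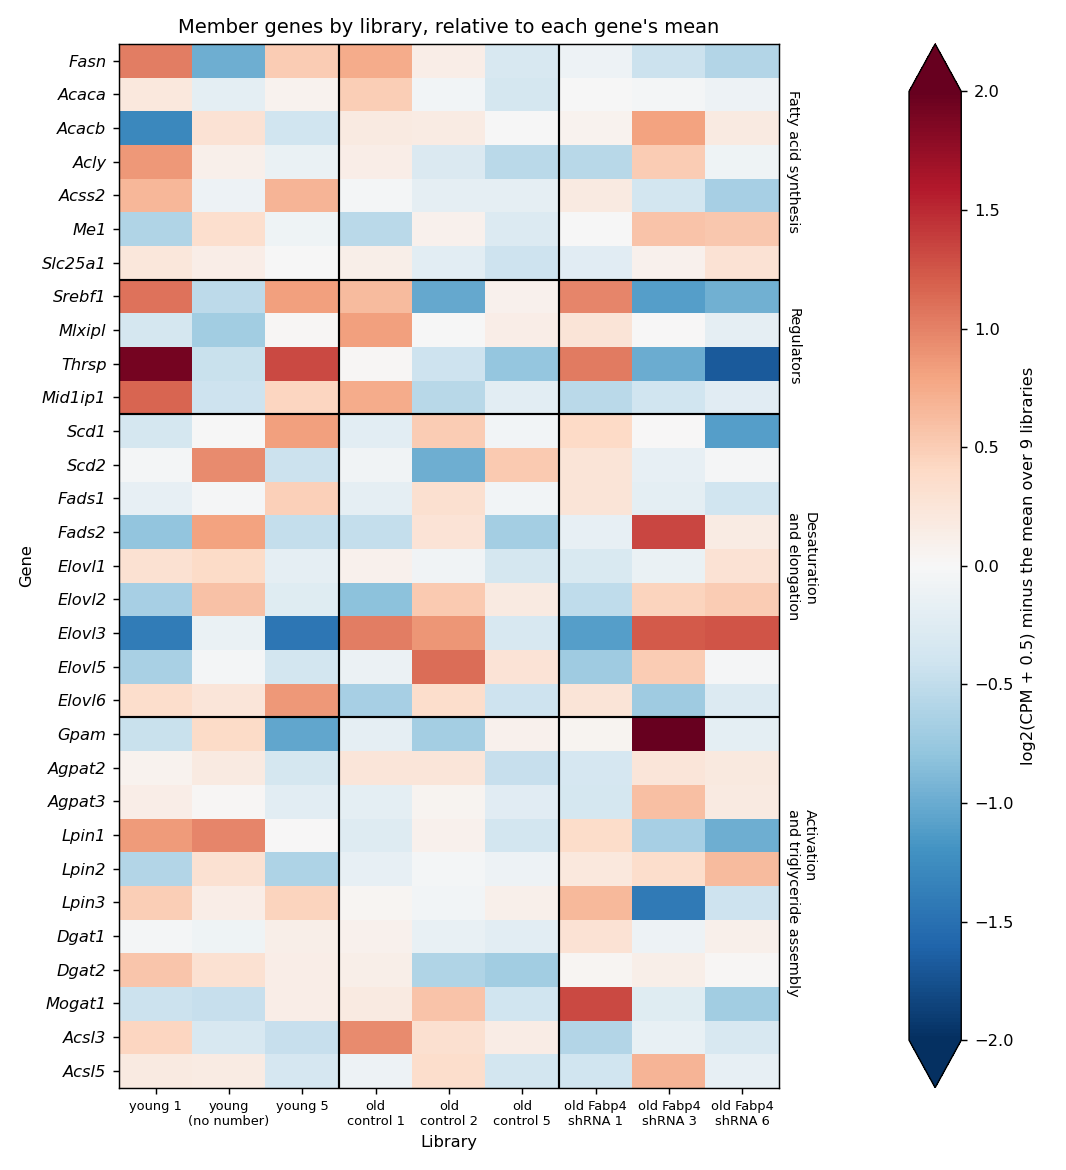
log2(CPM + 0.5) of each tested member in each library minus its mean over the 9 libraries, by role and group; red is above and blue below the gene's mean, and colours end at 2 and -2. Srebf1, Thrsp and Mid1ip1 are high in young replicate 1 and Elovl3 is low there, and Gpam is high in 1 liver, old Fabp4 shRNA replicate 3.

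Among the 7 genes of fatty acid synthesis, 1 differed at an unadjusted p under 0.05 in each comparison, beside the shares over all genes given above. With recovered reads there were 4 in old control against young, 2 between the old groups and 4 in old Fabp4 shRNA against young. Fasn, the synthase, stood at 131, 32.3 and 91.4 CPM in young liver (the second value here and below is the unnumbered library). Old control held 108, 70.1 and 51.4 CPM and old Fabp4 shRNA 59.4, 47.4 and 42.6 CPM. The 3 old Fabp4 shRNA livers lay below the 2 numbered young livers, and the unnumbered library lay below all of them. Fasn was estimated at -0.62 ± 0.44 on the log2 scale for old Fabp4 shRNA against old control (SE; 95% interval -1.58 to 0.34; edgeR adjusted p = 0.831), and at -0.29 without old control replicate 1. Against young it was -0.77 ± 0.44 (adjusted p = 0.614), and -0.32 without young replicate 1. Recovered reads, at 109 CPM in the unnumbered library, put the latter at -1.15 ± 0.26 (edgeR adjusted p = 0.063), and without that library -1.16 (adjusted p = 0.188).

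Acss2, which makes acetyl-CoA from acetate, stood at 69.6, 40.9 and 70.1 CPM in young liver and at 42.4, 38.4 and 38.8 CPM in old control. Old Fabp4 shRNA held 49.9, 34.0 and 27.5 CPM. Both numbered young livers were above all 6 old ones. The unnumbered library was not by its count, but was by its recovered reads, at 60.5 CPM. Its log2 fold changes against young were -0.59 ± 0.26 in old control (unadjusted p = 0.0414, edgeR adjusted p = 0.46) and -0.70 ± 0.26 in old Fabp4 shRNA (0.0201 and 0.49). Recovered reads gave -0.77 ± 0.22 and -0.85 ± 0.22 (edgeR adjusted p = 0.16 and 0.0788). Part of the Acss2 sequence is shared with overlapping genes (6.13% of its 50-base stretches, among them those of Gss and Ggt7 on the other strand), and the strand setting of the counting is not given in the sources used here.

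Me1, the malic enzyme that supplies NADPH for synthesis, was the member of this role with the smallest p between the old groups. Old control held 61.7, 95.9 and 74.0 CPM and old Fabp4 shRNA 89.1, 133 and 130.3 CPM, beside 58.8, 113 and 84.7 CPM in young liver. Only old control replicate 2 overlapped the hairpin group, lying above its replicate 1. On the log2 scale the difference was 0.61 ± 0.27 (unadjusted p = 0.0456, edgeR adjusted p = 0.728). Of its 50-base stretches, 28.3% occur in other genes, most in Gm7049, so reads may be split between them.

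Acly, the citrate lyase, stood at 77.9, 45.4 and 38.5 CPM in young, 46.6, 34.8 and 28.9 CPM in old control and 28.9, 60.8 and 39.8 CPM in old Fabp4 shRNA. All 3 groups overlapped. Acacb, the carboxylase of the outer mitochondrial membrane, which restrains fatty acid oxidation, stood at 14.1, 43.0 and 26.4 CPM in young and at 40.0, 39.3 and 34.8 CPM in old control. In old Fabp4 shRNA it stood at 36.9, 61.3 and 40.0 CPM, above both numbered young livers (log2 fold change against young 0.73 ± 0.34, edgeR adjusted p = 0.557; 1.02 ± 0.27 and 0.0901 with recovered reads). The estimate from the counts was 0.41 without young replicate 1 and 0.46 without old Fabp4 shRNA replicate 3. The remaining 2 had narrower ranges. Acaca, the cytosolic carboxylase, ran from 22.2 to 40.2 CPM over the 9 libraries. Slc25a1, the mitochondrial citrate carrier, ran from 102 to 167 CPM. Of the Acaca sequence, 30.4% of 50-base stretches occur elsewhere, most in Gm5182.

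The 4 regulators did not vary as one. Srebf1 stood at 77.2, 25.0 and 63.9 CPM in young liver, at 56.2, 17.5 and 38.2 CPM in old control and at 71.3, 16.5 and 18.2 CPM in old Fabp4 shRNA. Every group thus held both a liver above 55 CPM and one at or under 25.0 CPM, and the recovered reads of the unnumbered library stood at 70.6 CPM. The log2 fold change between the old groups was -0.081 ± 0.68, with a 95% interval from -1.63 to 1.47 (edgeR adjusted p = 0.992). With 1 library left out it ran from -1.10 (without old Fabp4 shRNA replicate 1) to 0.34 (without old control replicate 1). Thrsp, which encodes a thyroid hormone responsive protein of lipogenic tissue, had the largest fold change of any member in old control against young. It stood at 69.9, 13.3 and 46.1 CPM in young, 18.5, 13.5 and 10.5 CPM in old control and 37.8, 8.88 and 5.33 CPM in old Fabp4 shRNA. The 2 numbered young livers were above all 6 old ones, and the unnumbered library lay among the old controls. The log2 fold change for old control against young was -1.60 ± 0.80 (unadjusted p = 0.0788, edgeR adjusted p = 0.522). With recovered reads, 62.7 CPM in that library, it was -2.11 ± 0.63 (adjusted p = 0.221). Mid1ip1, a homologue of Thrsp whose product activates acetyl-CoA carboxylase, stood at 21.8, 6.90 and 12.9 CPM in young, 16.1, 6.25 and 8.08 CPM in old control and 6.29, 7.01 and 7.99 CPM in old Fabp4 shRNA. Its log2 fold change for old Fabp4 shRNA against young was -0.96 ± 0.42 (unadjusted p = 0.0418, edgeR adjusted p = 0.545). It was -1.19 ± 0.33 with recovered reads (edgeR adjusted p = 0.103) and -0.48 without young replicate 1. Of its sequence, 20.9% of 50-base stretches occur in the antisense gene Gm14493.

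Mlxipl, which encodes ChREBP, had an estimate of the opposite sign in old control against young. It stood at 134, 105 and 174 CPM in young and at 303, 169.9 and 188 CPM in old control, beside 204, 172 and 151 CPM in old Fabp4 shRNA. Old control replicate 1 was the highest of the 9 and old control replicate 2 lay just below the highest young liver. The log2 fold change for old control against young was 0.68 ± 0.27 (unadjusted p = 0.0271, edgeR adjusted p = 0.417), and 0.38 without old control replicate 1. With recovered reads, at 219.8 CPM in the unnumbered library, it was 0.29 ± 0.26 (adjusted p = 0.658).

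The values of 2 other sets of genes stand beside these. Dbp, a clock-driven transcription factor whose RNA swings widely over the day in liver, stood at 100.3, 32.4 and 90.1 CPM in young, 0.581, 0.589 and 16.4 CPM in old control and 53.5, 0.496 and 4.86 CPM in old Fabp4 shRNA. The clock genes Per3 and Tef were likewise highest in both numbered young livers and in old Fabp4 shRNA replicate 1, at 21.4, 34.0 and 42.8 CPM and at 204, 307 and 286 CPM. Those 3 libraries also held the 3 highest values of Srebf1 and of Thrsp and the 3 lowest values of Elovl3. Pdk4, a kinase induced by fasting, stood at 2.22, 2.21 and 5.25 CPM in the same 3 livers and at 22.0 to 233 CPM in the other 6. Fgf21, a hormone of the fasting response, stood at 1.03, 2.44 and 7.69 CPM in those 3 and at 21.4 to 61.9 CPM in the other 6. The recovered reads of the unnumbered library stood on the side of those 3 livers for Dbp (44.2 CPM), Pdk4 (3.89 CPM) and Srebf1, and not for Elovl3. For Per3, Tef and Fgf21 the recovered reads are not reported here. These 5 genes were picked from lists of 17 clock genes and 10 fasting genes after their values were seen, and the others are not shown singly. The set of 3 livers, drawn from 2 groups, was picked from the same values, so the match was partly set by that choice. The summed clock list stood at 715, 783 and 926 CPM in those 3 livers and at 460 to 631 CPM in the other 6, and the recovered reads, at 529 CPM, lay with the latter. The summed fasting list stood at 12275, 9799 and 12237 CPM in those 3 and overlapped the other 6, which began at 10447 CPM. By group the sums overlapped: the clock list ran from 507 to 783 CPM in young, 555 to 562 CPM in old control and 460 to 926 CPM in old Fabp4 shRNA. The fasting list ran from 9799 to 14237, from 10447 to 17697 and from 12237 to 17494 CPM. The clock list joins genes that peak at different times of day, so its sum can stay level while they shift. The fasting sum is weighted to its most abundant genes, with a highest single value of 5767 CPM. Overlap of the sums therefore does not show that the groups were alike in either state. The labels used here give neither a time of collection nor a fasting state, and the part of either in the members' values was not tested.

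**Figure D4:**
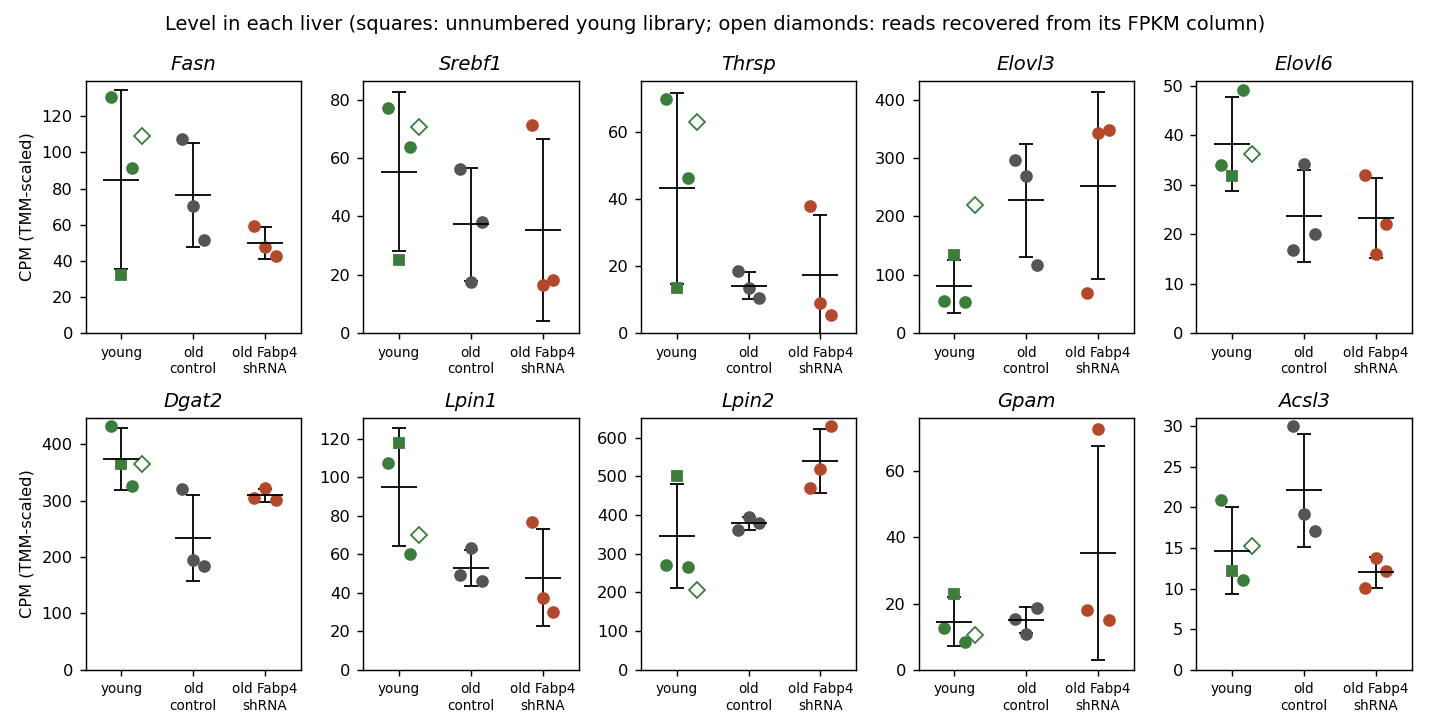
CPM of 10 members in each liver, with the mean (horizontal line) and SD (bars, not drawn below 0) of the 3 counted libraries of each group; squares are the unnumbered young library and open diamonds the reads recovered from its FPKM column. Thrsp stands at 69.9 and 46.1 CPM in the numbered young livers and at 5.33 to 37.8 CPM in the 6 old ones, and the 3 old control values of Lpin2 lie within 362 to 395 CPM.

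Of the 9 desaturases and elongases, 3 differed at an unadjusted p under 0.05 between old control and young, 0 between the old groups and 2 between old Fabp4 shRNA and young. With recovered reads these numbers were 2, 1 and 2. Over all tested genes the shares in either direction were 10.5%, 6.75% and 8.93%, and with recovered reads 13.9%, 8.62% and 17.2%. Scd1 stood at 1984, 2523 and 4452 CPM in young, 2172, 3596 and 2427 CPM in old control and 3336, 2536 and 1174 CPM in old Fabp4 shRNA. The most abundant member thus spread by 3.79 times over the libraries with the groups fully overlapping (log2 fold change between the old groups -0.22 ± 0.40, edgeR adjusted p = 0.952). Elovl3, which elongates very long saturated and monounsaturated chains, stood at 55.1, 133 and 52.9 CPM in young and at 296, 269 and 117 CPM in old control. Old Fabp4 shRNA held 67.8, 343 and 348 CPM, so that the first of these livers lay among the young ones. The log2 fold changes against young were 1.50 ± 0.64 in old control (unadjusted p = 0.0433, edgeR adjusted p = 0.465) and 1.65 ± 0.64 in old Fabp4 shRNA (0.0296 and 0.513). Recovered reads put the unnumbered library at 220.0 CPM and the fold changes at 1.02 ± 0.76 and 1.22 ± 0.77, while without that library they were 2.04 and 2.24.

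Elovl5, which elongates polyunsaturated fatty acids, stood at 376, 573 and 454 CPM in young and at 546, 1281 and 716 CPM in old control, with old Fabp4 shRNA at 358, 838 and 582 CPM. Old control replicate 2 held more than any other liver. The log2 fold change for old control against young was 0.86 ± 0.36 (unadjusted p = 0.0364, edgeR adjusted p = 0.443), and 0.43 without that liver. Recovered reads gave 0.82 ± 0.36. Elovl6, which extends palmitate to stearate, ran the opposite way. It stood at 34.1, 31.7 and 49.2 CPM in young, 16.7, 34.3 and 19.9 CPM in old control and 32.1, 16.1 and 22.0 CPM in old Fabp4 shRNA. Each old group overlapped young through 1 liver, and the log2 fold changes against young were -0.70 ± 0.32 and -0.71 ± 0.32 (unadjusted p = 0.0488 and 0.0442, edgeR adjusted p = 0.475 and 0.545). Recovered reads, at 36.2 CPM, gave -0.78 ± 0.30 and -0.77 ± 0.30 (edgeR adjusted p = 0.29 and 0.219). The former estimate was -1.07 without old control replicate 2.

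Fads2, the delta-6 desaturase of polyunsaturated fatty acids, had the smallest p of this role between the old groups. Old control held 70.2, 118 and 60.6 CPM and old Fabp4 shRNA 87.1, 248 and 109 CPM, beside 56.0, 170.2 and 70.0 CPM in young. Old Fabp4 shRNA replicate 3 was the highest, and the groups overlapped (log2 fold change 0.83 ± 0.50, edgeR adjusted p = 0.795). Without that library the log2 fold change was 0.24. The other 4 did not reach an unadjusted p under 0.05 in any comparison. Elovl2 ran from 332 to 882 CPM, Fads1 from 222 to 409 CPM, Elovl1 from 20.1 to 33.8 CPM and Scd2 from 0.883 to 4.73 CPM. For the related Scd genes, 4.56% of the 50-base stretches of Scd1 and 3.97% of those of Scd2 occur in another gene.

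Among the 11 tested genes of activation and triglyceride assembly, 2 differed at an unadjusted p under 0.05 between old control and young, 1 between the old groups and 2 between old Fabp4 shRNA and young. With recovered reads these numbers were 2, 3 and 3. Over all tested genes the shares in either direction were 10.5%, 6.75% and 8.93%, and with recovered reads 13.9%, 8.62% and 17.2%. Dgat2 stood at 433, 365 and 325 CPM in young liver (374 ± 54.7, mean ± SD, n = 3), at 321, 195 and 183 CPM in old control (233 ± 76.3) and at 305, 322 and 301 CPM in old Fabp4 shRNA (309 ± 11.2). All 3 old control livers lay below all 3 young ones, although old control replicate 1 was close to the lowest of them. All 3 old Fabp4 shRNA livers also lay below the young range, replicate 3 by little, at 322 against 325 CPM. The log2 fold change of Dgat2 for old Fabp4 shRNA against young was -0.28. Groups did not overlap in the lower direction for 8.26% of tested genes in old control against young and for 6.67% in old Fabp4 shRNA against young. Dgat2 was estimated at -0.68 ± 0.25 on the log2 scale for old control against young (unadjusted p = 0.0174, edgeR adjusted p = 0.39), the smallest p of any member there, and DESeq2 gave an adjusted p of 0.164. Between the old groups it was 0.41 ± 0.25 (95% interval -0.13 to 0.95, edgeR adjusted p = 0.792), from 0.26 without old control replicate 5 to 0.71 without old control replicate 1. The recovered reads of the unnumbered library stood at 366 CPM and gave -0.72 ± 0.24 for old control against young. Besides Dgat2, Lpin3 was the only member whose old control values all lay below the young ones, at 3.61 to 4.10 CPM against 4.21 to 5.54 CPM.

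The lipins remove phosphate from phosphatidic acid to give diacylglycerol, and Lpin1 and Lpin2 differed in sign against young. Lpin1, which also acts as a transcriptional coactivator, stood at 107, 118 and 59.9 CPM in young, 49.5, 63.4 and 45.9 CPM in old control and 76.6, 37.2 and 29.8 CPM in old Fabp4 shRNA. The lowest young liver lay within the range of both old groups. Against young, log2 fold changes were -0.85 ± 0.35 in old control (unadjusted p = 0.0333, edgeR adjusted p = 0.43) and -0.99 ± 0.35 in old Fabp4 shRNA (0.0159 and 0.482). Recovered reads, at 70.2 CPM in the unnumbered library, gave smaller values of -0.61 ± 0.33 and -0.74 ± 0.33 (edgeR adjusted p = 0.429 and 0.276). The latter estimate was -1.50 by counts without old Fabp4 shRNA replicate 1.

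Lpin2, a lipin abundant in liver, stood at 272, 499.6 and 266 CPM in young, 362, 395 and 378 CPM in old control and 471, 518 and 630.3 CPM in old Fabp4 shRNA. All 3 old Fabp4 shRNA livers were above all old control livers and above both numbered young livers, and the unnumbered library lay among them. Groups did not overlap in the higher direction for 6.02% of tested genes between the old groups. There the estimate was 0.51 ± 0.27 (95% interval -0.069 to 1.09, unadjusted p = 0.0791, edgeR adjusted p = 0.744). Set against young, the hairpin group had a value of 0.64 ± 0.27 (edgeR adjusted p = 0.525). Recovered reads, at 206 CPM in the unnumbered library, gave 1.12 ± 0.22 with an edgeR adjusted p of 0.0447, the only member called in that fit. The same fit called 0.445% of 13922 genes. Without the library the log2 fold change was 1.01 and the adjusted p 0.188. GENCODE places the long noncoding RNA Gm26561 within the span of Lpin2, on the same strand.

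**Figure D5:**
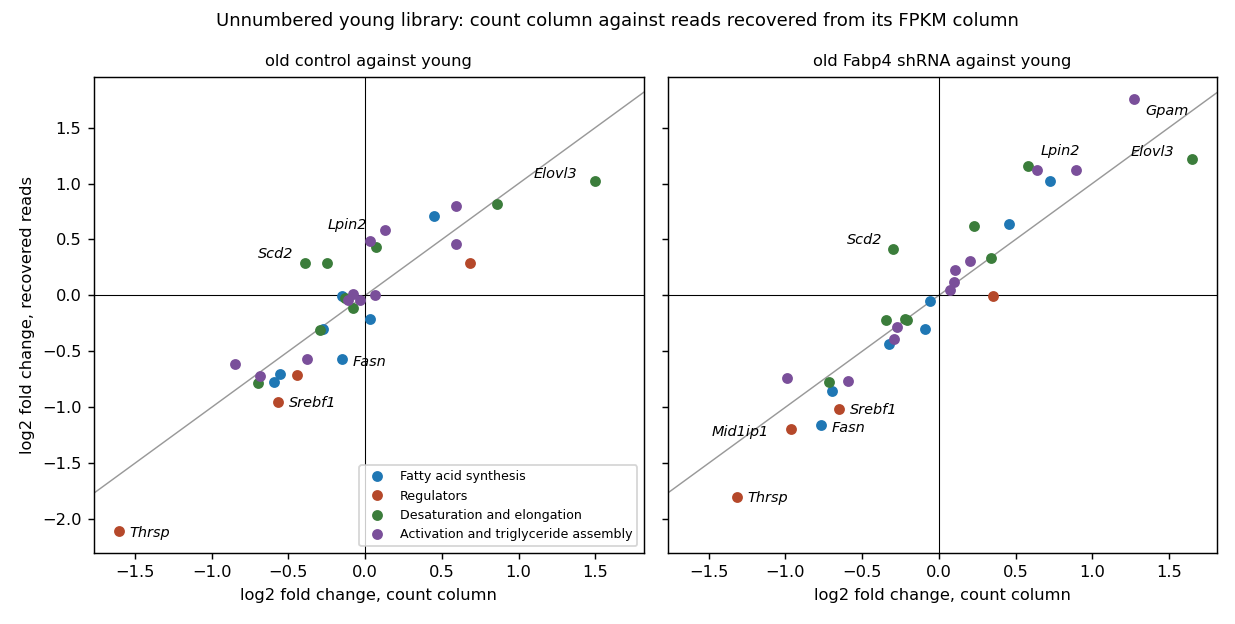
log2 fold changes of the 31 tested members from the deposited count column of the unnumbered young library (horizontal) and from reads recovered from its FPKM column (vertical), for both comparisons with young; the line marks equal values and colours mark roles. Lpin2 moves from 0.64 to 1.12 and Fasn from -0.77 to -1.15 in old Fabp4 shRNA against young, and Scd2 changes sign in both panels.

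Acsl3, a long-chain acyl-CoA synthetase of lipid droplets and endoplasmic reticulum, was the member with the smallest p between the old groups. Old control held 30.0, 19.2 and 17.0 CPM and old Fabp4 shRNA 10.0, 13.7 and 12.2 CPM, beside 20.8, 12.1 and 11.0 CPM in young. All 3 hairpin livers were below all 3 old control livers and within or below the young range, which was so for 5.67% of tested genes between the old groups in the lower direction. On the log2 scale the difference was -0.88 ± 0.29 (unadjusted p = 0.0106, edgeR adjusted p = 0.728; DESeq2 adjusted p = 0.41). Old control replicate 1, the highest in Acsl3, also held the highest summed level of 8 macrophage genes, 662 CPM against 118 to 293 CPM in the other 8 libraries, and the part of this in Acsl3 was not tested. Without that library the log2 fold change was -0.60. Gpam, the mitochondrial acyltransferase that starts glycerolipid synthesis, had the largest estimate between the old groups through 1 liver. Old control held 15.4, 10.7 and 18.6 CPM, old Fabp4 shRNA 18.1, 72.7 and 15.2 CPM and young liver 12.6, 22.9 and 8.24 CPM. The log2 fold change of 1.24 ± 0.61 (edgeR adjusted p = 0.742) was 0.16 without old Fabp4 shRNA replicate 3. That library also held the highest Pdk4 (233 CPM) and Fgf21 (61.9 CPM) of all. Its summed fasting list, at 17494 CPM, was not the highest, since old control replicate 2 held 17697 CPM. The same library held 81.7 CPM of skeletal muscle genes. The part of any of these in Gpam was not tested. The remaining members did not reach an unadjusted p under 0.05 in any comparison. Agpat2 ran from 122 to 199 CPM, Agpat3 from 196 to 379.7 CPM and Acsl5 from 117 to 247 CPM. Mogat1 stayed between 0.47 and 3.42 CPM. The 95% interval of Dgat1 between the old groups ran from -0.23 to 0.61 on the log2 scale.

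A wider list of 47 further genes of the pathway, such as other acyltransferases, enzymes of the elongation cycle, partners of SREBP and suppliers of NADPH, gave 42 tested genes. None passed the adjusted threshold in edgeR or limma-voom, and 1 did in DESeq2 (Cyb5r3, below). At an unadjusted p under 0.05 there were 3 in old control against young (1 higher, 2 lower), 4 between the old groups (3 higher, 1 lower) and 4 in old Fabp4 shRNA against young (1 higher, 3 lower). The shares over all genes are those given above for the members. In old control against young, genes with the smallest p-values included Gpat4 (a glycerol phosphate acyltransferase, log2 fold change -0.65 ± 0.28) and Cyb5r3 (cytochrome b5 reductase, which passes electrons to desaturases, -0.51 ± 0.23). Gpat4 stood at 129.96, 287 and 209.7 CPM in young and at 116, 137 and 147 CPM in old control, beside 251, 200.1 and 169 CPM in old Fabp4 shRNA. Recovered reads, at 131 CPM in the unnumbered library, took Gpat4 to -0.26 ± 0.24 and Cyb5r3 to -0.79 ± 0.20. Between the old groups the 3 smallest were those of Mcat, which makes malonyl groups for mitochondrial fatty acid synthesis (0.73 ± 0.25), Fitm2, which shapes lipid droplets (0.70 ± 0.29), and Tecr, the last enzyme of the elongation cycle (-0.50 ± 0.22). Mcat stood at 13.6, 14.1 and 12.1 CPM in old control and at 24.4, 19.4 and 22.4 CPM in old Fabp4 shRNA, with an edgeR adjusted p of 0.728. Fitm2 stood at 34.6, 58.8 and 45.5 CPM in old control and at 60.1, 86.1 and 79.0 CPM in old Fabp4 shRNA, beside 38.8, 78.3 and 78.8 CPM in young. Tecr stood at 145, 172 and 179 CPM in old control and at 130.2, 113 and 107 CPM in old Fabp4 shRNA, beside 196, 129 and 183 CPM in young. The old groups did not overlap for Mcat, Fitm2 or Tecr. In the wider list they did not overlap for 3 genes in the higher direction and 3 in the lower. Over all tested genes the shares were 6.02% and 5.67%.

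In old Fabp4 shRNA against young the genes of this wider list with the smallest p included Cyb5r3 and Tecr. Cyb5r3 stood at 432, 268 and 436 CPM in young, 282, 278 and 237 CPM in old control and 215, 205 and 194 CPM in old Fabp4 shRNA. The hairpin group lay below every other liver. Groups did not overlap in the lower direction for 6.67% of tested genes against young and for 5.67% between the old groups. Its log2 fold change against young was -0.89 ± 0.23 (unadjusted p = 0.00224, edgeR adjusted p = 0.343). DESeq2 gave an adjusted p of 0.0283, and recovered reads, at 483 CPM in the unnumbered library, gave -1.14 ± 0.20 with an edgeR adjusted p of 0.035. Tecr was estimated at -0.53 ± 0.22 (edgeR adjusted p = 0.513), and recovered reads, at 228 CPM, gave -0.80 ± 0.20 (edgeR adjusted p = 0.0776).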

How the data were processed

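Liver RNA was measured in 3 groups of 3 libraries. The submitters' processing notes name HISAT2 and the GRCm38.p6 genome. The sources used here do not give how reads were counted, on which strand and over which gene models. The deposited table of raw counts per Ensembl gene (54532 genes) was used as the main data. FPKM values, which the authors deposited for the same genes, served for levels per length and for alternatives. The number of columns matching no sample or group was 0. The letter of its name alone puts the unnumbered column among the young libraries. Its FPKM column gave whole reads within 0.05 reads for 100% of 16631 values (226 genes were lost, total 11805823), which served as an alternative.

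Counts were fitted with edgeR 4.0.16 in R 4.3.3: filterByExpr by group (14025 genes), TMM factors (0.825 to 1.15), and robust quasi-likelihood fits of 3 group means over 9 libraries (6 residual degrees of freedom, biological coefficient of variation 0.32). All p-values are two-sided, with Benjamini-Hochberg adjustment over all tested genes and a threshold of 0.05. Errors of fold changes are SE. The labels do not state that libraries come from separate mice, so p-values measure the spread between these libraries. Intervals at 0 counts cover counting error only. The members and lists were chosen with earlier results of these data known. Values per library are given for the 2 members with the smallest p per comparison and role and for Fasn, Srebf1, Scd1, Dgat2, Gpam and Pnpla3, and for the wider list for the 3 smallest p per comparison, of which 1 gene is not reported here.

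Positions and overlaps came from GENCODE mouse release M21 (54409 of 54532 identifiers and 32 of 32 members found), and shared 50-base stretches from its transcripts. Alternatives were DESeq2 1.42.0, limma 3.58.1 (voom on counts, trend on log2 FPKM), other scalings and filters, fits to 6 libraries, the library numbers as a block, recovered reads, and leaving out each library. The fit was tested on simulated data. Of genes given a log2 change of 1, it called 10.3% for old control against young and 12.1% between the old groups. For old Fabp4 shRNA against young it called 11.2%. Of genes given a log2 change of 2, it called 68.75%, 74.5% and 70.8%, in the same order. Most changes of 1 on the log2 scale were thus missed, so a member without a call may still have changed.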

Additional observations from a re-analysis of the deposited data

How the results depend on the processing

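No member was called in any comparison under the other scalings, filters, DESeq2, limma-voom, fits to the 6 libraries compared, or with any 1 library left out. The exceptions were these. With the replicate block, 3 members were called in old control against young: Thrsp (-2.02, edgeR adjusted p = 0.00312), Elovl3 (1.78, 0.0418) and Elovl6 (-1.17, 0.0425). That fit called 1.13% of all genes, against 0.0357% without it. In it, a number held by a single library is taken up by that library's own term. The comparison then rests on young replicates 1 and 5 and old control replicates 1 and 5 only. The block fit has far fewer residual degrees of freedom than the 6 of the fit without it. Its estimate of spread is thus borrowed mostly from other genes, and the 3 calls carry little weight. Same-numbered libraries showed little sign of pairing: their deviations correlated over genes at 0.11, 0.088, 0.030 and -0.046. Such values cannot exclude a pairing, so the block is a hint from the data only. In old Fabp4 shRNA against young, 1 member, Lpin2, was called with log2(FPKM + 1) (1.06, limma adjusted p = 0.0482), with log2(FPKM + 0.1) (1.10, 0.0429) and with recovered reads (1.12, edgeR adjusted p = 0.0447), all of which use the FPKM column of the unnumbered library.

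The median log2 fold change of members without scaling factors was 0.031, 0.21 and 0.21 in the 3 comparisons, while that of all genes was 0.16, 0.13 and 0.31. Relative to all genes the direction was therefore as in the report. With 1 library left out, the median ran from -0.23 to -0.057 in old control against young, from -0.049 (without old Fabp4 shRNA replicate 1) to 0.16 (without old control replicate 2) between the old groups, where it was also -0.038 without old control replicate 5, and from -0.16 to 0.0067 (without young replicate 1) in old Fabp4 shRNA against young. Over all 21 alternatives, 16, 12 and 12 of the 31 members kept 1 sign in the 3 comparisons, and 15, 19 and 19 did not. No called value changed sign, but only 3, 0 and 3 values were called in any alternative, too few for this to tell much. The depth limits Pnpla3, Mogat1 and Scd2 most.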
